A study of Mus musculus with 6 samples.

Results

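Carriers that move amino acids, amino acid transmitters and related small molecules across membranes form 10 *Slc* gene families, *Slc1a*, *Slc3a*, *Slc6a*, *Slc7a*, *Slc17a*, *Slc18a*, *Slc32a*, *Slc36a*, *Slc38a* and *Slc43a*. All genes whose symbol starts with one of these names were taken from the mRNA table, which gave 53 genes with 69 transcripts, of 12145 genes with 15142 transcripts in all. The rule itself uses symbols and no expression value. One of the 53, *Slc7a6os*, is a neighbour of *Slc7a6* that shares its name and is not a carrier. RefSeq lists 77 protein-coding genes of these families, and 24 of them, among them the dopamine carrier *Slc6a3*, the serotonin carrier *Slc6a4* and the noradrenaline carrier *Slc6a2*, have no row in the table and were not tested here.

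The retinas came from *Nrl*-/- mice and from wild-type (WT) mice, both on the C57BL/6 strain and both 21 days old (P21), with 3 libraries of each genotype and 1 mouse behind each library. *Nrl* encodes a leucine zipper transcription factor that rod precursors need, and a retina without it forms cone-like photoreceptors in place of rods. Every cell of the mutant mouse lacks the gene, so the comparison is not limited to one cell type. The values are FPKM, reads of a transcript scaled to its exon length and to the reads mapped in the library, so that levels can be compared between genes per length.

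*Nrl* averaged 0.919 ± 0.0399 FPKM in *Nrl*-/- retina and 545 ± 41.7 FPKM in WT retina (SD, n = 3 each), which matched the genotype labels in every library. Summed FPKM of 4 rod markers was 15.9 to 16.7 in *Nrl*-/- retina and 4526 to 5052 in WT retina, and that of 4 cone markers was 4411 to 4534 in *Nrl*-/- retina and 271 to 318 in WT retina. Of 5 Müller glia markers 1, the carrier *Slc1a3*, was called higher in limma and 0 were called in an ordinary linear model. Of the 4 amacrine cell markers with a row, among them the carrier *Slc6a9*, 0 were called in either model. An unadjusted p under 0.05 in limma was found for 2 of the Müller glia and 0 of the amacrine cell markers. In limma 38.6% of all genes were called in either direction. These are whole retinas, so that fewer cells of a type and less RNA per cell cannot be told apart. WT replicate 2 was the only library with *Xist* RNA (186 FPKM) and without RNA of 4 Y-linked genes (at most 0.0644 FPKM).

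In the retina, glutamate is the transmitter of photoreceptors, bipolar cells and ganglion cells, whereas amacrine and horizontal cells use mainly GABA or glycine. Vesicular carriers load the transmitter into synaptic vesicles, and carriers of the plasma membrane take it up again and end the signal. Müller glia turn much of the recovered glutamate into glutamine, which sodium-coupled carriers of the Slc38a family move out of glia and into neurons. The remaining families supply cells with essential, cationic and branched-chain amino acids, taurine and creatine.

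A transcript was called when its Benjamini-Hochberg adjusted p in limma, a linear model with moderated variances fitted here over all 15142 transcripts, was under 0.05. Each gene is represented by its transcript with the highest mean FPKM, and fold changes are on the log2(FPKM + 1) scale, which makes the change of low genes smaller. Of the 53 genes 12 (22.6%) were higher in *Nrl*-/- retina, where 28.3% of all genes were higher, and 8 (15.1%) were lower, where 10.2% of all genes were lower. The other 33 did not pass the test. With a fold change of at least 1.5 as well, 6 (11.3%) were higher, against 5.78% of all genes, and 2 (3.77%) were lower, against 3.72%. The *Nrl*-/- and WT libraries did not overlap for 29 of the 53 genes (54.7%), and for 51% of all genes. The median log2 fold change was 0.05 for the carriers and 0.09 for all genes, and the median size of change without its sign was 0.18 for the carriers and 0.17 for all genes. No test set the carriers against other genes.

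The balance of rises and falls depended on how libraries were scaled. The median transcript of the whole table was 0.08 higher in *Nrl*-/- retina on the log2 scale as deposited, and lay at 0.00 under each of 4 other scalings. Under each of these 9 carrier genes were called higher and 12 lower, in place of 12 and 8, and with a fold change of at least 1.5 they were 4 and 3 in place of 6 and 2, as *Slc7a4* and *Slc38a10* (0.55 each under median-of-ratios scaling) no longer reached it. The share of higher calls was then 42.9% in place of 60% for the carriers, and between 52.0% and 53.7% in place of 72.7% for all transcripts.

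**Figure D1:**
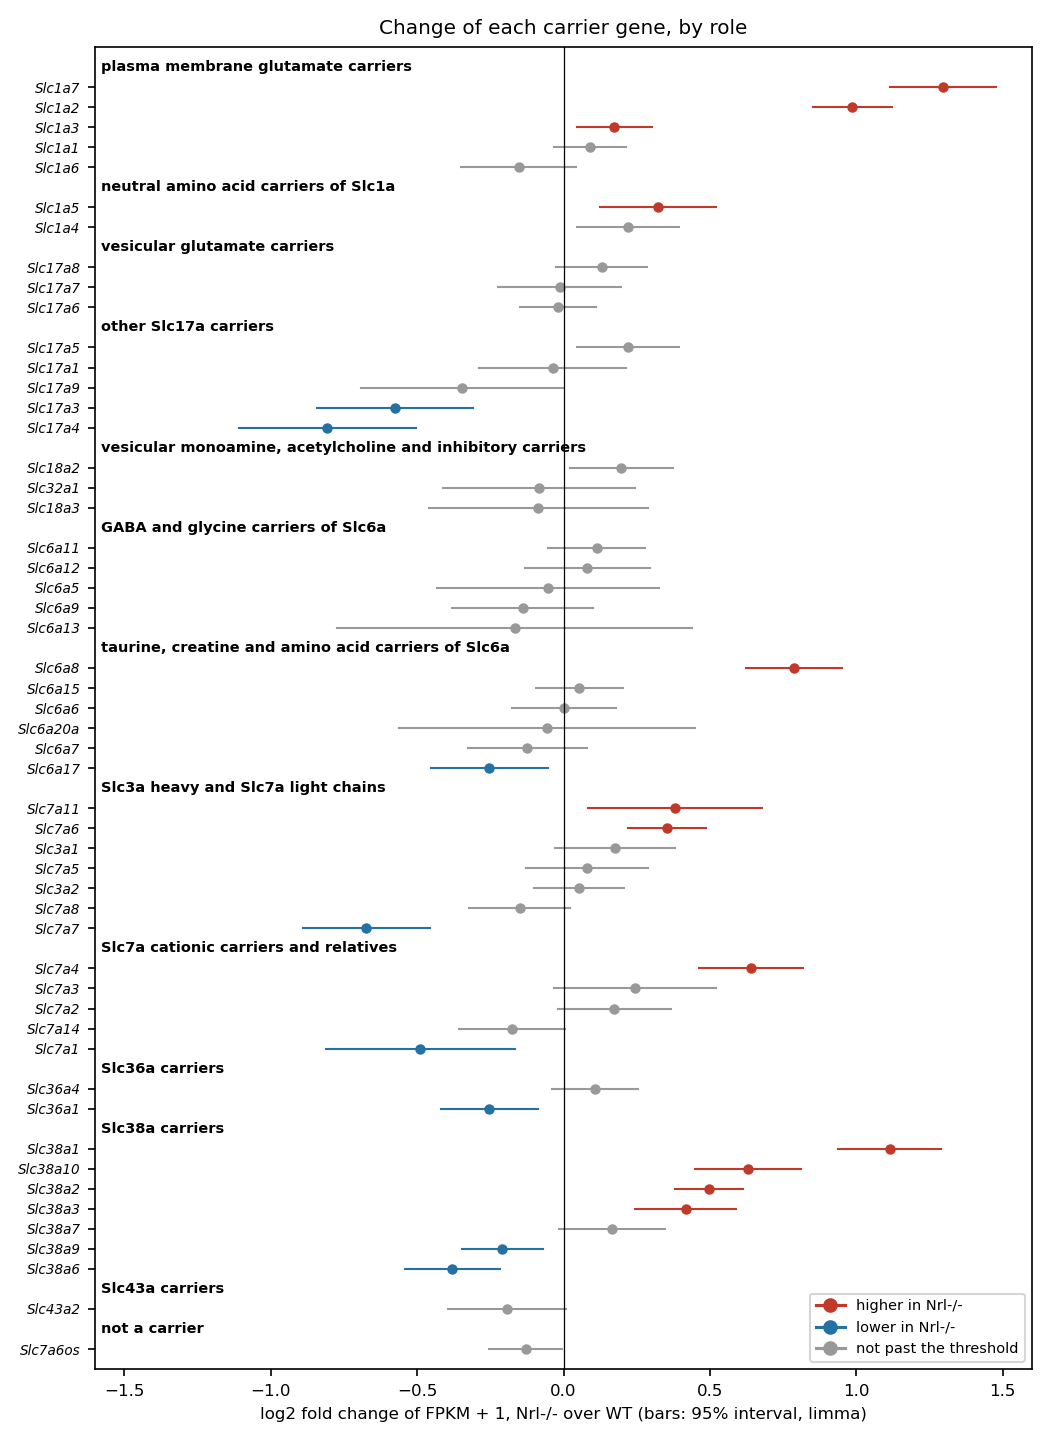
Log2 fold change of FPKM + 1, *Nrl*-/- over WT (x axis), of 52 of the 53 genes (y axis), grouped by role and ordered by size within each group. Points are estimates and bars 95% intervals from limma (n = 3 libraries each), red for called higher, blue for called lower and grey for not called. *Slc1a7*, *Slc38a1* and *Slc1a2* lie farthest to the right at 1.30, 1.11 and 0.99, and *Slc17a4* farthest to the left at −0.81.

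The 2 highest carriers had nearly the same mean level in both genotypes. *Slc17a7*, the vesicular glutamate carrier VGLUT1 of photoreceptor and bipolar terminals, averaged 324 ± 5.68 FPKM in *Nrl*-/- retina and 329 ± 45.3 FPKM in WT retina. *Slc6a6*, the taurine carrier, averaged 243 ± 14.0 FPKM in *Nrl*-/- retina and 243 ± 23.1 FPKM in WT retina. *Slc38a3* (glutamine) and *Slc1a7* (glutamate) were also among the highest, and 20 genes in all reached a mean of 10 FPKM. At the other end 12 genes had a mean under 2 FPKM.

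**Figure D2:**
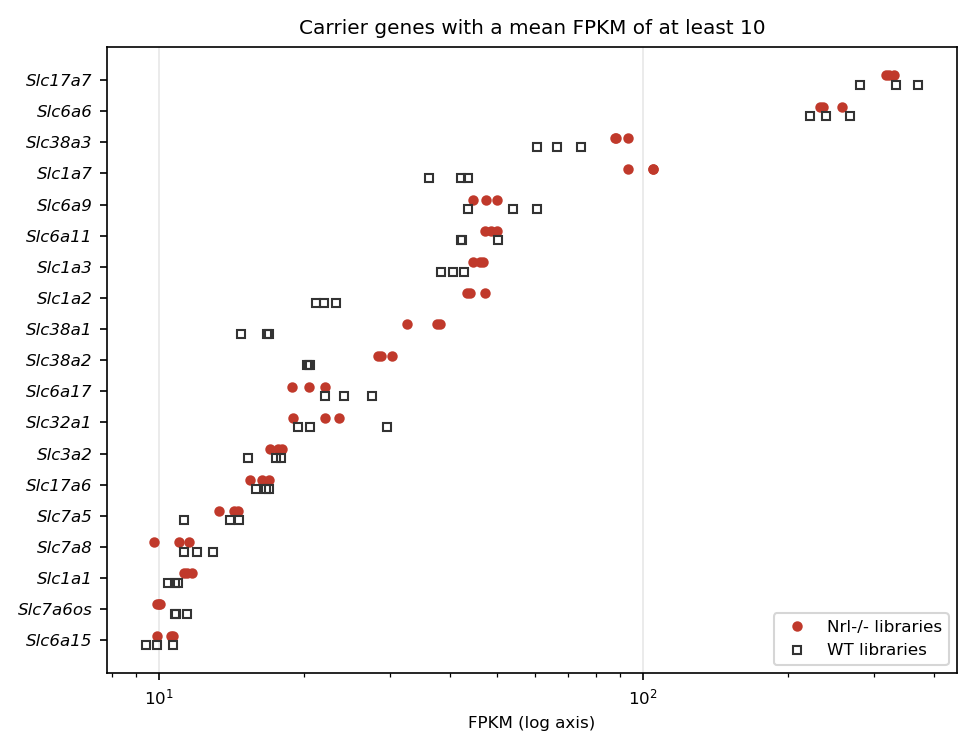
FPKM on a log axis (x axis) in each library for 19 of the 20 genes with a mean of at least 10 FPKM (y axis, ordered by mean). Red circles are the 3 *Nrl*-/- libraries and open squares the 3 WT libraries. *Slc1a7*, *Slc1a2*, *Slc38a1*, *Slc38a2* and *Slc38a3* have every *Nrl*-/- library to the right of every WT library, while the symbols of *Slc17a7* and *Slc6a6* overlap.

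Of the 5 glutamate carriers of the plasma membrane 3 were higher in *Nrl*-/- retina and none was lower, where 28.3% of all genes were higher and 10.2% lower. In an ordinary linear model 2 of the 5 were called. *Slc1a7* encodes EAAT5, a carrier of photoreceptor and bipolar terminals that also conducts chloride, and lies on chromosome 4 from 107640784 to 107686137 on the plus strand (NCBIM37). It had 105, 105 and 93.4 FPKM in the *Nrl*-/- libraries and 43.6, 42.1 and 36.3 FPKM in the WT libraries. Every *Nrl*-/- library was more than 2 times as high as any WT library. Its mean was 2.49 times as high in *Nrl*-/- as in WT retina (log2 fold change 1.30, SE 0.08, limma adjusted p = 2.65e-06).

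*Slc1a2* encodes GLT-1, which in the mouse retina is found in cones and bipolar cells rather than in glia, and lies on chromosome 2 from 102498816 to 102630941 on the plus strand (NCBIM37). It had 43.3, 43.9 and 47.2 FPKM in the *Nrl*-/- libraries and 21.2, 23.3 and 21.9 FPKM in the WT libraries. The groups were far apart, with little spread within either. The log2 fold change was 0.99 (SE 0.06, limma adjusted p = 2.19e-06), and its 2 further transcripts gave 0.89 and 0.87. Bipolar cell markers moved in the same libraries, with a summed FPKM of 4 ON bipolar markers of 277 to 299 in *Nrl*-/- retina and 142 to 164 in WT retina. Of these markers *Cabp5* and *Grm6* were higher, *Prkca* was lower and *Trpm1* was not called. Most of the rise in that sum was *Cabp5*, with a mean of 162 FPKM in *Nrl*-/- and 38.05 FPKM in WT retina. In the same order *Grm6* averaged 43.3 and 27.5 FPKM, *Trpm1* 53.7 and 46.2 FPKM, and *Prkca* 31.8 and 41.5 FPKM. The part of bipolar cells in the rise of *Slc1a7* and *Slc1a2* was not tested, nor was that of the cone markers given above.

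*Slc1a3*, the glutamate carrier GLAST of Müller glia, had 46.2, 44.6 and 46.8 FPKM in *Nrl*-/- retina and 38.4, 40.6 and 42.7 FPKM in WT retina. The libraries did not overlap, but the gap between the closest was small. The call (log2 fold change 0.17, SE 0.06, limma adjusted p = 0.0397) was lost in 12 of 19 alternatives, among them each omission of 1 library other than WT replicate 3, and under quantile normalization the log2 fold change was 0.02. The neuronal carrier *Slc1a1* (EAAC1) averaged 11.5 ± 0.218 FPKM in *Nrl*-/- and 10.7 ± 0.248 FPKM in WT retina, and *Slc1a6* (EAAT4) 1.32 ± 0.154 FPKM in *Nrl*-/- and 1.58 ± 0.116 FPKM in WT retina. Neither passed the test (limma adjusted p = 0.23 and 0.204).

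Among the neutral exchangers of the same family, *Slc1a5* (ASCT2), which exchanges glutamine, was called higher and *Slc1a4* (ASCT1) was not. *Slc1a4*, the more abundant of the pair, had 4.03, 3.86 and 3.96 FPKM in *Nrl*-/- and 3.29, 3.56 and 2.92 FPKM in WT libraries (log2 fold change 0.22, limma adjusted p = 0.0502, and 0.0318 without WT replicate 2). *Slc1a5* averaged 2.87 ± 0.329 FPKM in *Nrl*-/- and 2.09 ± 0.151 FPKM in WT retina (0.32, adjusted p = 0.0181 in limma). That call was lost in 7 alternatives, including those without *Nrl*-/- replicate 2 or 3 (adjusted p = 0.0713 and 0.0711).

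The 250 bases before the RefSeq start of *Slc1a7* (chr4:107968156-107968405, plus strand) and *Slc1a2* (chr2:102706188-102706437, plus strand) are shown because these carriers had 2 of the 3 largest rises, beside those of *Slc17a7* (chr7:45163671-45163920, plus strand), the highest carrier, which was not called. Coordinates and letters are those of RefSeq on GRCm38.p6, not of the mm9 build of the reads, and run 5′ to 3′. Capitals would mark TAATCC, a CRX-like motif, TGCTGA, an NRL-like motif, or AGGTCA, a nuclear receptor motif, on either strand, and none of these windows holds one.
Slc1a7 promoter: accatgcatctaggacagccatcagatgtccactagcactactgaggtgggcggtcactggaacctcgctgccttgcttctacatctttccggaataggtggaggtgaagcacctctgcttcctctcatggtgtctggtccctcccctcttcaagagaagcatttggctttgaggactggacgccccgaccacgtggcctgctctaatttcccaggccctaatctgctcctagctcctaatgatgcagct
Slc1a2 promoter: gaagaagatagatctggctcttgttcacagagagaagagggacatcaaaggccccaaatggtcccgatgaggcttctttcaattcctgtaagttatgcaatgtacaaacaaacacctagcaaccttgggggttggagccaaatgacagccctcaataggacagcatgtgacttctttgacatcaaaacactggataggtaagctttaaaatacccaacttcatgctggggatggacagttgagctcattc
Slc17a7 promoter: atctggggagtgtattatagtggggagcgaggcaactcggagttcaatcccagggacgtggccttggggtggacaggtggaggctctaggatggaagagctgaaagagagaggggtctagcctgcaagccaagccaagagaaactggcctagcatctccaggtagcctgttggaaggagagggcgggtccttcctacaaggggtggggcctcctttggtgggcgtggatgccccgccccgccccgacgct

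A promoter was listed for 39 of the 53 genes, with 59 windows. TAATCC was in 3.39% of them and in 6.25% of all 32851 windows, TGCTGA in 8.47% and 16.1%, and AGGTCA in 11.9% and 14%. Both strands were searched, and TGCTGA and the other strand of AGGTCA can overlap by TGA. A match in letters is not a binding site, and the lack of one says only that these letters were not in the window.

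None of the 3 vesicular glutamate carriers was called in limma, where 38.6% of all genes were called in either direction. None was called in an ordinary linear model either, and 0 had an unadjusted p under 0.05 in limma. *Slc17a7* had 329.8, 319 and 323 FPKM in *Nrl*-/- libraries and 371, 334 and 281 FPKM in WT libraries, and the WT libraries lay on both sides of the *Nrl*-/- ones. The log2 fold change was −0.01 with a 95% interval of −0.22 to 0.20 (limma adjusted p = 0.926). *Slc17a6* (VGLUT2), which marks ganglion cells, averaged 16.2 ± 0.725 FPKM in *Nrl*-/- and 16.5 ± 0.501 FPKM in WT retina, with an interval of −0.15 to 0.11. *Slc17a8* (VGLUT3), the carrier of a class of amacrine cells, averaged 4.65 ± 0.227 FPKM in *Nrl*-/- and 4.16 ± 0.233 FPKM in WT retina (limma adjusted p = 0.177).

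The other *Slc17a* genes were low in the retina, and 2 of 5 were lower in *Nrl*-/- retina, where 10.2% of all genes were lower. One of the 2, *Slc17a3*, passed the authors' filter of 1 FPKM only through WT libraries, so the filter favoured its fall. *Slc17a4*, an organic anion and phosphate carrier best known from the intestine, had 2.12, 1.99 and 2.76 FPKM in *Nrl*-/- libraries and 5.02, 5.59 and 3.72 FPKM in WT libraries. Its lowest WT library lay above its highest *Nrl*-/- library. The log2 fold change was −0.81 (SE 0.13, limma adjusted p = 0.00148), the largest fall among the 53 genes on the log2(FPKM + 1) scale. As a ratio of mean FPKM, 0.479, it was smaller than the falls of *Slc7a7* (0.264) and *Slc17a3* (0.271). Its neighbour *Slc17a3* had 0.181, 0.24 and 0.266 FPKM in *Nrl*-/- libraries and 0.778, 1.13 and 0.625 FPKM in WT libraries (−0.58, SE 0.12, adjusted p = 0.0046 in limma). Both lie on chromosome 13, *Slc17a3* from 23931303 to 23952583 and *Slc17a4* from 23989607 to 24006876 (NCBIM37), with *Slc17a1* between them. The 3 are related in sequence, so that reads may be split among them. *Slc17a1* itself averaged 1.01 ± 0.0883 FPKM in *Nrl*-/- and 1.07 ± 0.264 FPKM in WT retina.

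*Slc17a5* (sialin, the sialic acid carrier of lysosomes) averaged 4.04 ± 0.384 FPKM in *Nrl*-/- and 3.32 ± 0.0898 FPKM in WT retina and was just short of the threshold (limma adjusted p = 0.0513, and 0.0383 without *Nrl*-/- replicate 1). *Slc17a9*, the vesicular ATP carrier, averaged 0.266 ± 0.0461 FPKM in *Nrl*-/- and 0.637 ± 0.379 FPKM in WT retina (limma adjusted p = 0.109). The authors kept a transcript that reached 1 FPKM in any library. Of the 69 member transcripts 3, those of *Slc17a3*, *Slc17a9* and *Slc7a7*, passed only through WT libraries, and 2, those of *Slc7a11* and *Slc3a1*, only through *Nrl*-/- libraries, so the filter favoured a difference in these.

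The 3 vesicular carriers of inhibitory and modulatory transmitters also gave no call in limma or in an ordinary linear model. One, *Slc18a2*, had an unadjusted p under 0.05 in limma. Of all genes 38.6% were called in limma in either direction. *Slc32a1* (VGAT), which loads GABA and glycine, had 22.1, 23.6 and 19.0 FPKM in *Nrl*-/- libraries and 29.7, 20.6 and 19.4 FPKM in WT libraries. WT replicate 1 stood above the other 5, which overlapped, and the 95% interval of the log2 fold change was −0.41 to 0.24. *Slc18a3*, the vesicular acetylcholine carrier of starburst amacrine cells, averaged 2.58 ± 0.197 FPKM in *Nrl*-/- and 2.90 ± 1.07 FPKM in WT retina. *Slc18a2* (VMAT2), which loads dopamine and other monoamines, averaged 2.51 ± 0.215 FPKM in *Nrl*-/- and 2.06 ± 0.0686 FPKM in WT retina (limma adjusted p = 0.0765).

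Of the 6 GABA and glycine carriers of the *Slc6a* family 0 were called in limma or in an ordinary linear model. In limma 0 had an unadjusted p under 0.05, and the groups overlapped for each. Over all genes 38.6% were called in limma in either direction, and the groups did not overlap for 51%. A mean under 2 FPKM was found for 3 of the 6. *Slc6a9*, the glycine carrier GlyT1 of glycinergic amacrine cells, had 47.5, 49.9 and 44.6 FPKM in *Nrl*-/- and 60.4, 53.9 and 43.6 FPKM in WT libraries (log2 fold change −0.14, limma adjusted p = 0.337). It was called lower in 1 alternative alone, without WT replicate 3 (−0.27, limma adjusted p = 0.02). *Slc6a11* (GAT-3) averaged 48.5 ± 1.37 FPKM in *Nrl*-/- and 44.9 ± 4.63 FPKM in WT retina and was called higher in 1 alternative alone, without WT replicate 1 (0.20, limma adjusted p = 0.017). The low members *Slc6a5* (GlyT2) and *Slc6a12* (BGT1) averaged 1.25 ± 0.138 and 1.99 ± 0.167 FPKM in *Nrl*-/- retina, against 1.39 ± 0.606 and 1.84 ± 0.282 FPKM in WT retina.

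*Slc6a13* (GAT-2), a GABA carrier of surface layers and epithelia, varied more within the genotypes than between them. It had 0.79, 2.14 and 0.613 FPKM in *Nrl*-/- and 1.48, 2.03 and 0.705 FPKM in WT libraries. *Slc6a20a*, a carrier of proline and other imino acids, had 1.13, 0.803 and 0.693 FPKM in *Nrl*-/- and 1.19, 1.57 and 0.301 FPKM in WT libraries, a range of 5.20-fold among WT libraries. The summed FPKM of *Rpe65*, *Ttr* and *Tyrp1*, the 3 of 4 pigment epithelium markers with a row, was 25.2, 24.5 and 15.4 in *Nrl*-/- and 21.4, 43.3 and 5.95 in WT libraries. Within WT all 3 measures were highest in replicate 2 and lowest in replicate 3, and within *Nrl*-/- all 3 were lowest in replicate 3. The part of pigment epithelium in these levels was not tested.

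**Figure D3:**
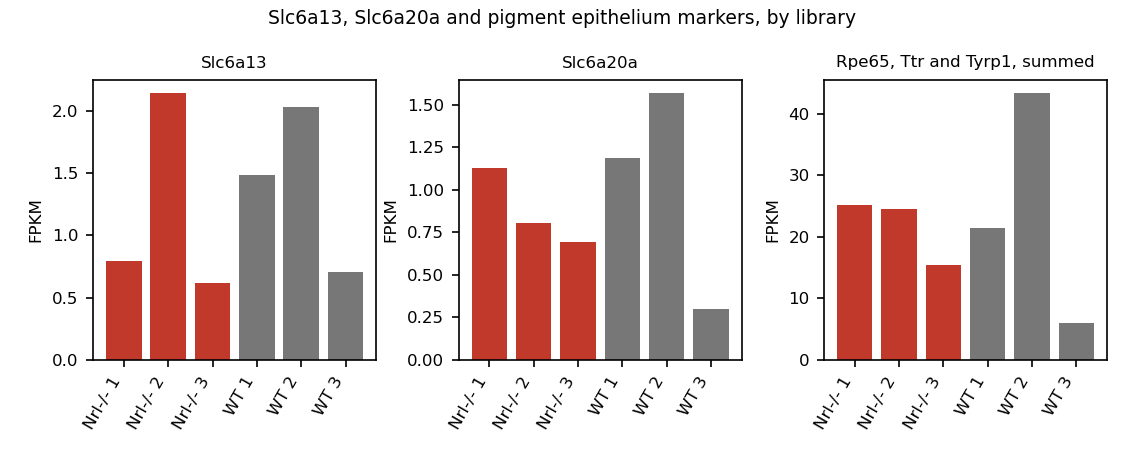
FPKM (y axes, linear, from 0) of *Slc6a13*, *Slc6a20a* and the sum of *Rpe65*, *Ttr* and *Tyrp1* in each of the 6 libraries (x axes). Red bars are *Nrl*-/- and grey bars WT libraries. WT replicate 2 is the highest and WT replicate 3 the lowest WT library in each panel.

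Of the 6 further *Slc6a* carriers the creatine carrier rose and the synaptic vesicle carrier *Slc6a17* was called lower. Over all genes 28.3% were higher and 10.2% lower. *Slc6a8*, which brings creatine into cells, lies on chromosome X from 70918489 to 70927841 on the plus strand (NCBIM37). It had 9.85, 9.93 and 10.3 FPKM in *Nrl*-/- libraries and 5.06, 5.15 and 6.01 FPKM in WT libraries. WT replicate 2, which alone holds *Xist* RNA, lay between the other 2 WT libraries. The log2 fold change was 0.79 (SE 0.07, limma adjusted p = 3.74e-05), with 0.79 and 0.86 for its further transcripts. Brain creatine kinase *Ckb*, the enzyme that phosphorylates creatine, was also higher, at 398 ± 7.35 FPKM in *Nrl*-/- and 291 ± 43.3 FPKM in WT retina (0.46, adjusted p = 0.0051 in limma, and 0.0638 in an ordinary linear model).

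*Slc6a6* had 233, 236 and 259 FPKM in *Nrl*-/- libraries and 268, 222 and 239.5 FPKM in WT libraries. The ranges overlapped throughout, and the 95% interval of the log2 fold change was −0.18 to 0.18. *Slc6a17* (NTT4) averaged 20.4 ± 1.63 FPKM in *Nrl*-/- and 24.6 ± 2.80 FPKM in WT retina (−0.25, limma adjusted p = 0.0498). Its groups met at 22.1 FPKM, in *Nrl*-/- replicate 2 and WT replicate 3, and the call was lost in 7 alternatives, among them those without *Nrl*-/- replicate 1 or 3 or WT replicate 1 or 2 (limma adjusted p = 0.0937 to 0.166). *Slc6a15*, a carrier of branched-chain amino acids and proline in neurons, averaged 10.4 ± 0.431 FPKM in *Nrl*-/- and 10.02 ± 0.656 FPKM in WT retina, and the proline carrier *Slc6a7* 2.30 ± 0.306 FPKM in *Nrl*-/- and 2.59 ± 0.203 FPKM in WT retina.

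**Figure D4:**
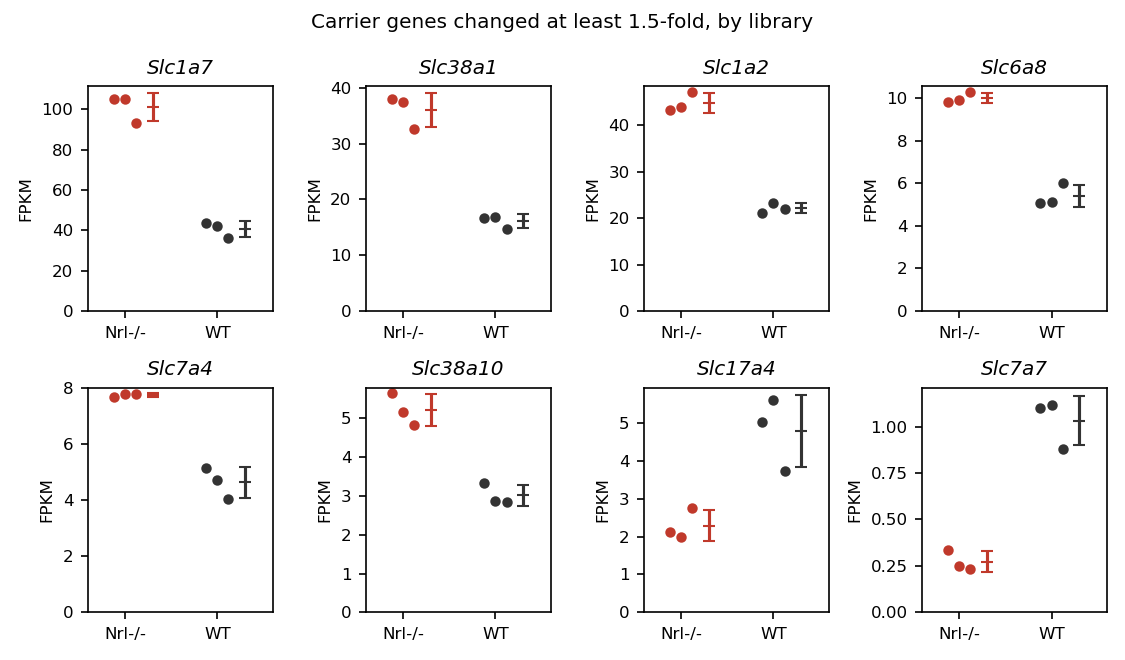
FPKM (y axes, linear, from 0) of the 8 genes called with a fold change of at least 1.5, with *Nrl*-/- (red) left of WT (dark) on the x axis. Points are libraries, and the bar beside them is the mean ± SD (n = 3). In each panel all 3 *Nrl*-/- libraries lie on one side of all 3 WT libraries, above them for 6 genes and below them for *Slc17a4* and *Slc7a7*. The authors' filter favoured this for *Slc7a7*, which passed it only through WT libraries.

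The chains of the heteromeric carriers, in which a heavy chain of the *Slc3a* family holds a light chain of the *Slc7a* family at the cell surface, had 2 of 7 genes higher and 1 lower, where 38.6% of all genes were called in either direction. The heavy chain 4F2hc, encoded by *Slc3a2*, had 17.6, 18 and 17 FPKM in *Nrl*-/- libraries and 17.9, 15.3 and 17.5 FPKM in WT libraries, which overlapped. Its partners for large neutral amino acids, *Slc7a5* (LAT1) and *Slc7a8* (LAT2), averaged 14.1 ± 0.664 and 10.8 ± 0.914 FPKM in *Nrl*-/- retina, against 13.3 ± 1.79 and 12.1 ± 0.820 FPKM in WT retina. Neither was called (limma adjusted p = 0.53 and 0.158), though *Slc7a8* was called lower under the 4 other scalings. The heavy chain *Slc3a1* (rBAT) was low, at 0.939 ± 0.114 FPKM in *Nrl*-/- and 0.714 ± 0.0661 FPKM in WT retina.

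The 2 light chains of the y+L type, which exchange cationic for neutral amino acids, were called in opposite directions. One of them, *Slc7a7*, passed the authors' filter of 1 FPKM only through WT libraries, so the filter favoured its fall. *Slc7a6* (y+LAT2) had 10.2, 10.2 and 9.48 FPKM in *Nrl*-/- libraries and 7.57, 7.69 and 7.46 FPKM in WT libraries (log2 fold change 0.35, limma adjusted p = 0.00148). *Slc7a7* (y+LAT1), mutated in human lysinuric protein intolerance, had 0.338, 0.248 and 0.231 FPKM in *Nrl*-/- libraries and 1.10, 1.11 and 0.879 FPKM in WT libraries. The *Nrl*-/- mean was 0.264 times the WT mean (log2 fold change −0.67, SE 0.10, limma adjusted p = 0.000635), and the highest *Nrl*-/- library was below the lowest WT library. *Slc7a7* lies on chromosome 14 from 54989128 to 55032856 on the minus strand, 1.10 Mb from *Nrl* (56137815 to 56143818), and *Slc7a8* lies 0.737 Mb from *Nrl* (NCBIM37). For these genes the lack of *Nrl* and any strain sequence linked to the targeted allele cannot be told apart.

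One of 5 listed *Slc7a7* promoter windows held 2 of the motifs (GRCm38.p6, chr14:54410204-54410453, minus strand, RefSeq). It is shown as the only listed window of a gene changed at least 1.5-fold to hold any. Windows were listed for 3 of the 6 genes higher by this measure and for 1 of the 2 lower. *Slc38a1*, *Slc6a8*, *Slc7a4* and *Slc17a4* had none listed and were not searched. Capitals mark TGCTGA, which starts 177 bases before the transcript start, and TGACCT, the other strand of AGGTCA, 38 bases before it.
Slc7a7 promoter: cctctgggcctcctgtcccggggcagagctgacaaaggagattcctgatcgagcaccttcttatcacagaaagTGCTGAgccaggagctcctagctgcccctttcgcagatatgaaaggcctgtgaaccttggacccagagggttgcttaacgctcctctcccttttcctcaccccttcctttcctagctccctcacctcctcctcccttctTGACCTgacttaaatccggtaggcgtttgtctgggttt

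*Slc7a11* (xCT), which exports glutamate in exchange for cystine, had 0.79, 1.23 and 0.569 FPKM in *Nrl*-/- and 0.444, 0.404 and 0.404 FPKM in WT libraries. The *Nrl*-/- libraries differed among themselves by more than the gap between the groups. The call (log2 fold change 0.38, SE 0.13, limma adjusted p = 0.0482) was lost in 10 of 17 alternatives, among them each omission of 1 library other than *Nrl*-/- replicate 3, and without *Nrl*-/- replicate 2 the log2 fold change was 0.24.

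Of the 5 cationic amino acid carriers and their relatives 1 rose and 1 was called lower, where 28.3% of all genes were higher and 10.2% lower. *Slc7a4*, a relative of the cationic carriers without a settled substrate, had 7.69, 7.82 and 7.82 FPKM in *Nrl*-/- libraries and 5.15, 4.74 and 4.06 FPKM in WT libraries. The groups were apart, with almost no spread in *Nrl*-/- retina (log2 fold change 0.64, SE 0.08, limma adjusted p = 0.000264). *Slc7a1* (CAT1), a carrier of arginine and lysine, had 2.39, 2.43 and 2.43 FPKM in *Nrl*-/- and 3.50, 2.97 and 5.19 FPKM in WT libraries (−0.49, SE 0.14, limma adjusted p = 0.0251). The call was lost when any *Nrl*-/- library was left out (limma adjusted p = 0.0592 to 0.0673), and without WT replicate 3, the highest library, the log2 fold change was −0.31. *Slc7a2* (CAT2) and *Slc7a3* (CAT3) averaged 2.20 ± 0.0679 and 2.02 ± 0.245 FPKM in *Nrl*-/- retina, against 1.84 ± 0.240 and 1.56 ± 0.405 FPKM in WT retina. Neither was called with all libraries, though *Slc7a2* was called higher without WT replicate 1 and *Slc7a3* without WT replicate 3 (limma adjusted p = 0.0399 and 0.039). *Slc7a14*, a gene of human retinitis pigmentosa, had 6.21, 6.31 and 6.36 FPKM in *Nrl*-/- and 8.25, 6.67 and 6.89 FPKM in WT libraries, and was called lower only under the 4 other scalings.

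Of the 7 *Slc38a* genes 4 were higher and 2 lower in *Nrl*-/- retina, where 28.3% of all genes were higher and 10.2% lower. *Slc38a1* (SNAT1), which takes glutamine into neurons, lies on chromosome 15 from 96401849 to 96473344 on the minus strand (NCBIM37). It had 38.1, 37.6 and 32.6 FPKM in *Nrl*-/- libraries and 16.8, 16.9 and 14.8 FPKM in WT libraries, and every *Nrl*-/- library was far above every WT library. The mean was 2.24 times as high (log2 fold change 1.11, SE 0.08, limma adjusted p = 5.98e-06), and the 2 further transcripts gave 1.00 and 1.09. *Slc38a2* (SNAT2), which cells raise when amino acids run short, had 28.9, 28.4 and 30.3 FPKM in *Nrl*-/- and 20.6, 20.4 and 20.3 FPKM in WT libraries (0.50, SE 0.05, adjusted p = 8.56e-05 in limma).

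*Slc38a3* (SNAT3), the glutamine carrier of Müller glia and astrocytes and the highest gene of the family, had 88.3, 87.6 and 93.4 FPKM in *Nrl*-/- and 66.6, 74.6 and 60.4 FPKM in WT libraries. The groups did not overlap (0.42, SE 0.08, limma adjusted p = 0.00268). The summed FPKM of 5 Müller glia markers was 713 to 760 in *Nrl*-/- and 712 to 751 in WT retina, and of these *Slc1a3* alone was called. Most of that sum was *Glul*, with a mean of 530 FPKM in *Nrl*-/- and 545 FPKM in WT retina. In the same order *Rlbp1* averaged 91.0 and 82.3 FPKM, *Vim* 57.1 and 46.2 FPKM, and *Aqp4* 19.9 and 20.4 FPKM. The *Slc38a3* transcript NM_023805 gave a log2 fold change of 0.18 (limma adjusted p = 0.219). Its difference in response from the highest *Slc38a3* transcript was −0.24 (limma adjusted p = 0.196).

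*Slc38a10* had 5.63, 5.15 and 4.82 FPKM in *Nrl*-/- and 3.32, 2.86 and 2.84 FPKM in WT libraries (0.63, SE 0.08, limma adjusted p = 0.000327), and its 4 transcripts had nearly the same levels. The falls were smaller. *Slc38a6* averaged 3.32 ± 0.218 FPKM in *Nrl*-/- and 4.62 ± 0.240 FPKM in WT retina (−0.38, limma adjusted p = 0.00306). *Slc38a9*, the arginine sensor of lysosomes for mTORC1, averaged 8.49 ± 0.202 FPKM in *Nrl*-/- and 9.99 ± 0.537 FPKM in WT retina (−0.21, limma adjusted p = 0.0247), a call lost without WT replicate 2 or any 1 *Nrl*-/- library (limma adjusted p = 0.0517 to 0.0917). *Slc38a7*, a glutamine carrier of lysosomes, averaged 6.42 ± 0.395 FPKM in *Nrl*-/- and 5.62 ± 0.553 FPKM in WT retina and was not called.

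Of the 2 proton-coupled carriers *Slc36a4* had 7.94, 7.57 and 8.0 FPKM in *Nrl*-/- and 7.17, 6.78 and 7.69 FPKM in WT libraries, which overlapped. *Slc36a1* (PAT1), a lysosomal exporter, averaged 5.24 ± 0.231 FPKM in *Nrl*-/- and 6.44 ± 0.542 FPKM in WT retina (−0.25, limma adjusted p = 0.0242). That call was lost without *Nrl*-/- replicate 1 or 2 or WT replicate 1 (limma adjusted p = 0.0529 to 0.0959). *Slc43a2* (LAT4), the only *Slc43a* gene with a row, had 3.56, 3.56 and 2.86 FPKM in *Nrl*-/- and 4.17, 3.63 and 4.03 FPKM in WT libraries. It was not called as deposited (limma adjusted p = 0.12) and was called lower under the 4 other scalings. *Slc7a6os* averaged 10.0045 ± 0.0763 FPKM in *Nrl*-/- and 11.05 ± 0.367 FPKM in WT retina (limma adjusted p = 0.0966) and was called lower under the 4 other scalings and in an ordinary linear model.

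Transcripts of one gene were compared in a fit of their own, on the difference between each further transcript and the highest one. None of the 16 member pairs passed in limma, where 1.47% of all 2997 pairs did, and 3 had an unadjusted p under 0.05, 1 in *Slc38a3* and 2 in *Slc43a2*. By transcript in place of gene, 22 of the 69 were higher (background 26.7%) and 8 lower (background 10.1%). With a fold change of at least 1.5 as well, 15 were higher (background 5.71%) and 2 lower (background 3.59%), and the groups did not overlap for 39 (background 49.1%). Of the 22, *Slc38a10* gave 4 and *Slc1a2*, *Slc38a1* and *Slc6a8* gave 3 each, and transcripts of a gene share reads.

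Enzymes that make or break down the cargo of these carriers, together with 1 choline carrier, form a list of 36 genes of which 32 had a row. Of these 14 were higher (28.3% of all genes were), 1 was lower (10.2% of all genes were) and 17 were not called. Under the 4 other scalings 11 were higher and 2 lower. *Bcat1*, which transfers the amino group of branched-chain amino acids to make glutamate, averaged 30.1 ± 0.891 FPKM in *Nrl*-/- and 13.4 ± 0.877 FPKM in WT retina (log2 fold change 1.11, adjusted p = 1.35e-06 in limma). Its mitochondrial relative *Bcat2* averaged 4.45 ± 0.460 FPKM in *Nrl*-/- and 2.21 ± 0.104 FPKM in WT retina (0.76). *Amt*, of the glycine cleavage system, and *Asns*, asparagine synthetase, were higher by 0.57 and 0.52. The aspartate aminotransferases were called in opposite directions. Cytosolic *Got1* averaged 137 ± 3.35 FPKM in *Nrl*-/- and 95.6 ± 4.26 FPKM in WT retina (0.51), and mitochondrial *Got2* averaged 23.2 ± 0.799 FPKM in *Nrl*-/- and 27.8 ± 1.65 FPKM in WT retina (−0.25, limma adjusted p = 0.0106, and 0.0502 without *Nrl*-/- replicate 1). The GABA-making enzymes *Gad1* and *Gad2* were not called.

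The carriers varied more among WT than among *Nrl*-/- libraries. The median coefficient of variation was 6.16% in *Nrl*-/- and 9.55% in WT retina, and it was larger in WT for 37 of the 53 genes. All genes shared this, with 4.78% in *Nrl*-/- and 8.77% in WT retina. WT replicate 1 was the highest WT library for 27 of the 53 carriers (50.9%) and for 39.7% of all genes, and for 5 of the 6 GABA and glycine carriers.

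The authors' second table, made with TopHat and Cufflinks from the same libraries, holds 1 pooled FPKM per genotype and so allows no test. It lists 47 of the 53 genes, and *Slc7a7* and *Slc17a3*, both called lower above, are not among them. The pooled FPKM of *Slc1a7* was 92.6 in *Nrl*-/- and 36.7 in WT retina, that of *Slc38a1* 54.1 in *Nrl*-/- and 23.9 in WT retina, and that of *Slc1a2* 53.2 in *Nrl*-/- and 26.8 in WT retina. *Slc38a10* differed between the tables, with a pooled 11.5 FPKM in *Nrl*-/- and 10.8 FPKM in WT retina for the highest of 8 Ensembl transcripts, as did *Slc7a5* (14.6 in *Nrl*-/- and 9.74 in WT retina) and *Slc18a2* (0.967 in *Nrl*-/- and 1.49 in WT retina). *Slc7a10*, a light chain for small neutral amino acids and D-serine that has no row in the BWA table, had a pooled 4.66 FPKM in *Nrl*-/- and 3.75 FPKM in WT retina.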

How the data were processed

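Total retinal RNA of 6 mice was made into libraries with a TruSeq mRNA kit and sequenced as 70-nucleotide single reads. The authors aligned reads to mm9 with BWA and estimated FPKM of refFlat transcripts in Partek. The deposited table gives log2(FPKM + 1) to 2 decimals for each transcript that reached 1 FPKM in any of the 6 libraries. A second deposited table holds 1 pooled FPKM per genotype, made by the authors with TopHat and Cufflinks on Ensembl transcripts. Its fold changes and p-values are the authors' own comparisons and were not used. The mRNA table holds no counts, so the depth behind a value and its counting error are not known here. BWA does not place reads across splice junctions, which can lower values of genes with short exons.

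FPKM was recovered by undoing the logarithm. Genotypes were compared with limma 3.58.1 in R 4.3.3 on the deposited log2 values, 3 libraries against 3, with a trended prior, two-sided, and Benjamini-Hochberg adjustment over all 15142 mRNA transcripts. The fit was tested on simulated data, with changes set only in transcripts above a minimum level. Of 50 changes of 1.5-fold 42 were recovered, and 10 of 14942 unchanged transcripts were called. That test does not cover changes of low genes. Values in every library are given for genes called with a fold change of at least 1.5, for the highest gene of each role group, for any gene whose transcripts differ in response (none did) and for further genes named after their values were seen. From the enzyme list, up to 4 called genes with the largest change each way and the 3 with the highest FPKM were named, and *Gad1* and *Gad2* after their values were seen. Of the genes counted, 1 carrier and 1 enzyme are not reported here. Members and lists were chosen with earlier results of these data known. Alternatives were pseudocounts of 0.1 and 0.5, filters at FPKM 1 in 3 libraries and at FPKM 5, an ordinary linear model, other priors, 4 other scalings, FPKM summed per gene, a replicate block and leaving out each library. Positions are from the NCBIM37 annotation, and promoter letters and motif searches used the 250 bases before each RefSeq start. Python 3.11.15 with pandas 2.3.3, numpy 2.4.6 and matplotlib 3.10.9 made the tables and figures.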

Additional observations from a re-analysis of the deposited data

How the results depend on the processing

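Of the 20 carriers called, 13 kept their direction and call under every alternative run that could give a value. Among these were *Slc1a7*, *Slc1a2*, *Slc38a1*, *Slc6a8*, *Slc7a4*, *Slc38a10* and *Slc17a4*. The filter at FPKM 5 kept *Slc17a4* only through WT libraries and *Slc38a10* only through *Nrl*-/- libraries, so it favoured a difference in both. The 13 include *Slc7a7* and *Slc17a3*, which passed the deposited filter only through WT libraries and which both stricter filters remove, so their calls say nothing of stability. The other 7 (*Slc1a3*, *Slc1a5*, *Slc36a1*, *Slc38a9*, *Slc6a17*, *Slc7a1* and *Slc7a11*) lost it in at least 1, and 10 of the 33 not called were called in at least 1. No called carrier changed sign. Carriers called lower numbered 8 and ranged from 4 to 9 when 1 library was left out, by gene and by transcript (4 without *Nrl*-/- replicate 1, 5 without *Nrl*-/- replicate 2 or 3), and numbered 5 with an FPKM of at least 5 in 1 library, where fewer genes are tested. Those lower by at least 1.5-fold numbered 2, but 1 with either stricter filter and 4 with a pseudocount of 0.1, which enlarges changes of low genes, and ranged from 2 to 3 with 1 library left out. All transcripts called higher numbered 4047, but 2463 under median-of-ratios scaling, 2466 under upper-quartile scaling, 2451 under quantile normalization and 2563 when scaled without the 25 highest transcripts. Enzymes called lower numbered 1, but 2 under each of these scalings and in limma without trend, and from 0 (without *Nrl*-/- replicate 1) to 3 (without WT replicate 3), with 2 without *Nrl*-/- replicate 3. The cause of these shifts was not tested.

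With the replicate number as a block, 11 carrier genes were higher and 8 lower, and 3973 transcripts in all were higher and 1520 lower. Deviations of same-numbered libraries correlated at 0.03, 0.02 and 0.12, and those of differently numbered libraries at −0.09 to 0.07. The largest value was that of the replicates numbered 3. Whether same-numbered libraries shared a dissection or batch is not in the labels and was not tested. *Slc1a3* lost its call under the block (limma adjusted p = 0.0581). Levels under about 1 FPKM, as of *Slc7a7*, *Slc17a3*, *Slc17a9* and *Slc7a11*, rest on an unknown number of reads. With 3 mice of each genotype, the test says nothing of differences inside the intervals given for *Slc17a7*, *Slc6a6* and *Slc32a1*.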
